A study of Homo sapiens with 60 samples.

Results

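Genes for proteins that the liver secretes into plasma or carries at its surface were followed in HepG2 cells treated with herbal water extracts, namely ALB, AFP, TTR, SERPINA1, RBP4, AHSG, AMBP, GC and GPC3. They were chosen by name and are 9 of the 60675 genes in the table. HepG2 is an established human liver tumour line, so every library in the series comes from tumour cells of a single line. Cells were grown for 24 h with a water extract of 1 of 7 herbal medicines at 500, 100 or 20 µg/mL, or with the vehicle, given as 0.1% DMSO in the sample labels and as 2% in the design text. The extracts were Cnidii Rhizoma, Rehmanniae Radix Preparata, Cinnamomi Cortex, Astragali Radix, Sagunja-tang, Samul-tang and Palmul-tang. The vehicle and 6 of the extracts had 3 libraries per group. Palmul-tang had 1 library per dose, and its values are given without a test. The sample codes number Cnidii Rhizoma and Rehmanniae Radix Preparata as set 5, Cinnamomi Cortex and Astragali Radix as set 6, Sagunja-tang and Samul-tang as set 7 and Palmul-tang as set 8. The titles of all libraries, vehicle and extracts alike, carry the label BatchB. The vehicle libraries carry none of the set numbers, so an extract's difference from vehicle and a difference between its set and the vehicle cannot be told apart. The sample labels record a DMSO percentage for the vehicle libraries alone. If extract and vehicle cultures differed in DMSO, that difference cannot be told apart from the extract either. What the set numbers stand for is not given in the sources used here. The labels do not say whether the 3 libraries of a group came from separate cultures, so the p-values measure the spread between these libraries, which may be technical.

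Albumin is the main protein of adult plasma, and alpha-fetoprotein (AFP) is its relative of fetal life, silenced in the liver after birth and made again by many liver tumours. Transthyretin (TTR) carries thyroxine and binds retinol-binding protein (RBP4), the carrier of vitamin A, while the vitamin D-binding protein (GC) belongs to the albumin family. SERPINA1 encodes alpha-1 antitrypsin, AHSG encodes fetuin-A, an inhibitor of mineral deposition, and AMBP encodes the precursor of alpha-1-microglobulin and bikunin. Glypican-3 (GPC3) is not a plasma carrier but a proteoglycan of the cell surface, which like AFP is an oncofetal marker of liver tumours.

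Totals were 16484546 to 34412234 counts per library, with a median of 25507583. Mitochondrial genes took 13.0 to 22.6% of counts. They took 19.4 to 22.3% in the 3 libraries of Cinnamomi Cortex at 500 µg/mL and 14.4 to 16.7% in vehicle. The TMM scaling factors of those 3 Cinnamomi Cortex libraries were 0.833 to 0.862, below the 0.915 to 1.05 of the other 57. All 8 markers of the liver line were present, the lowest with a mean of 57.6 CPM, the share of a library's counts on a common total after TMM scaling. Of 13 markers of blood, stromal and other epithelial cells, 7 had a mean under 0.1 CPM and 2 were at 0 in all 60 libraries. The 13 summed to 1220 to 1363 CPM in vehicle and 2944 to 3361 CPM with 500 µg/mL Cinnamomi Cortex. Nearly all of that sum was LYZ, the lysozyme gene, at 1220 CPM in vehicle and 3159 CPM with that extract, while the leukocyte genes PTPRC and CD3E were at 0 in both groups. With 500 µg/mL Cinnamomi Cortex, leaving mitochondrial genes out of the scaling left edgeR's calls among the 9 genes at 5 higher and 1 lower. Any other part of these shifts in the results for the plasma proteins was not tested.

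ALB and AFP are neighbours on chromosome 4. In GRCh38 the annotation places ALB at chr4:73397114-73421412 and AFP at chr4:73431138-73456174, both on the plus strand and 9726 bp apart. GC is on the minus strand of the same chromosome, at chr4:71741693-71804041. TTR is at chr18:31557010-31599021 (plus strand) and GPC3 at chrX:133535745-133985895 (minus strand). SERPINA1 is at chr14:94376747-94390693, RBP4 at chr10:93591687-93601744 and AMBP at chr9:114060127-114078472, all on the minus strand, and AHSG is at chr3:186612923-186621318 on the plus strand.

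RefSeq promoter windows of build GRCh38.p14 were matched for 6 of the 9 genes. TTR, GC and GPC3 had none. Here the start of a gene is the one these windows use, not that of the annotated span above. The windows shown for ALB, AFP and SERPINA1 therefore lie inside those spans, and those of AHSG and AMBP overlap theirs. The 250 bases before the start are shown for the chromosome 4 pair, which was not called with the strongest extract (Cinnamomi Cortex at 500 µg/mL), and for the 3 matched genes that rose most with it. Each reads 5′ to 3′ on the gene's own strand. Capitals mark GTTAAT, the core word of sites of the liver factor HNF1, and CCAAT, the CCAAT box, on either strand, so that the reverse form of CCAAT reads ATTGG.
ALB, chr4:73404037-73404286 (plus strand): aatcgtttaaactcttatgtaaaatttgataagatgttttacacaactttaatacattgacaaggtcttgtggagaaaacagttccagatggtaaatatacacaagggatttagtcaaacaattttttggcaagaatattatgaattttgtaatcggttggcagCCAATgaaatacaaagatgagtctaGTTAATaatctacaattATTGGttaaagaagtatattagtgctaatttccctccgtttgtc
AFP, chr4:73435971-73436220 (plus strand): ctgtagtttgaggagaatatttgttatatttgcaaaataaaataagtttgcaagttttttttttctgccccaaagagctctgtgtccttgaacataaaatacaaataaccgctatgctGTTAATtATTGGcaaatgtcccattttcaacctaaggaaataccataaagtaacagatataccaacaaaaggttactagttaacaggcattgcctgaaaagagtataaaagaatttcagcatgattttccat
SERPINA1, chr14:94388603-94388852 (minus strand): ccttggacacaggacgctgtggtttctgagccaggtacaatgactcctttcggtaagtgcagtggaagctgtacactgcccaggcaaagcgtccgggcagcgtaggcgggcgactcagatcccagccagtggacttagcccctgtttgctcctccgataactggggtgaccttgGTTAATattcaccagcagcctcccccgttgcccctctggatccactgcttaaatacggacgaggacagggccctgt
AHSG, chr3:186612810-186613059 (plus strand): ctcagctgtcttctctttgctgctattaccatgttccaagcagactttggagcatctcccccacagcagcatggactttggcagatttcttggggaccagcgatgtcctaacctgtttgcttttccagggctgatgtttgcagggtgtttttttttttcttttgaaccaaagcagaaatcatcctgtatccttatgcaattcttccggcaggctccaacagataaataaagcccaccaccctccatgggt
AMBP, chr9:114078301-114078550 (minus strand): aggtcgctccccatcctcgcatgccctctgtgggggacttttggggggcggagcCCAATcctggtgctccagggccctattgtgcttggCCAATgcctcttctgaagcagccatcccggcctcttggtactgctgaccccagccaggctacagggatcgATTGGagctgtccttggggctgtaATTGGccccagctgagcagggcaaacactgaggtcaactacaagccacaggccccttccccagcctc
GTTAAT was found in the ALB, AFP and SERPINA1 windows, starting 61, 132 and 76 bases before the start, and in 6.23% of all 35116 windows of this length. CCAAT was found 2 times in ALB, 1 time in AFP and 4 times in AMBP, and in 32.0% of all windows. The AHSG window held neither. In AFP the reverse CCAAT followed GTTAAT with 1 base between them. SERPINA1 has a second window, at chr14:94390636-94390885, and it held neither word. On either strand, the core word TTGCNNAA of C/EBP sites was in ALB, AFP, AHSG and 1 of the 3 RBP4 windows (9.05% of all windows). The hypoxia word ACGTG (18.5%) and the antioxidant word TGACNNNGC (10.9%) were in none of the members' windows, which says only that these letters are not there.

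In vehicle cells the 9 genes spanned a wide range of expression. On a scale corrected for exon length (TPM, in which each library sums to the same total), AFP stood at 11266 TPM and ranked 14th of 57055 genes, ahead of ALB at 8954 TPM. SERPINA1 followed at 5814 TPM, AHSG at 2030 TPM, AMBP at 1189 TPM and RBP4 at 1151 TPM. TTR was at 209 TPM and GPC3 at 129.9 TPM. GC, the vitamin D carrier, came last at 1.90 TPM, ranked 11988, with 17 to 62 counts a library over all 60. The tumour-associated AFP was above ALB on this scale and by mean share of counts in vehicle (1.35% against 1.11%). The length used merges the exons of all transcripts of a gene, 4902 bases for SERPINA1 and 3377 for ALB. The order depends on these lengths, and by mean share of counts SERPINA1 (1.05%) was close to ALB. Together the 9 genes took 3.85 to 3.91% of all counts in vehicle and 3.32 to 4.32% over all 60 libraries. The highest share, 4.16 to 4.32%, was with 500 µg/mL Cinnamomi Cortex.

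The 9 genes also differed in how far they moved. Between the highest and the lowest of the 19 groups with replicates, the group mean in CPM differed 1.19-fold for AFP, 1.296-fold for RBP4, 1.33-fold for GPC3 and 1.37-fold for ALB. The range was wider for SERPINA1 (1.84-fold), AMBP (1.90-fold), TTR (2.32-fold) and AHSG (2.62-fold). GC spanned 2.29-fold, but its counts were low and its libraries scattered more, with a median coefficient of variation of 13.4% within groups against 2.93 to 5.80% for the other 8. Without the group at 500 µg/mL Cinnamomi Cortex the span of AHSG was 1.57-fold, of TTR 1.65-fold, of SERPINA1 1.22-fold and of AMBP 1.203-fold. AFP's span did not involve that group, since its highest group was Cinnamomi Cortex at 100 µg/mL and its lowest Samul-tang at 20 µg/mL. That lowest group holds the lowest AFP library of the 57, at 10060 CPM.

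**Figure D1:**
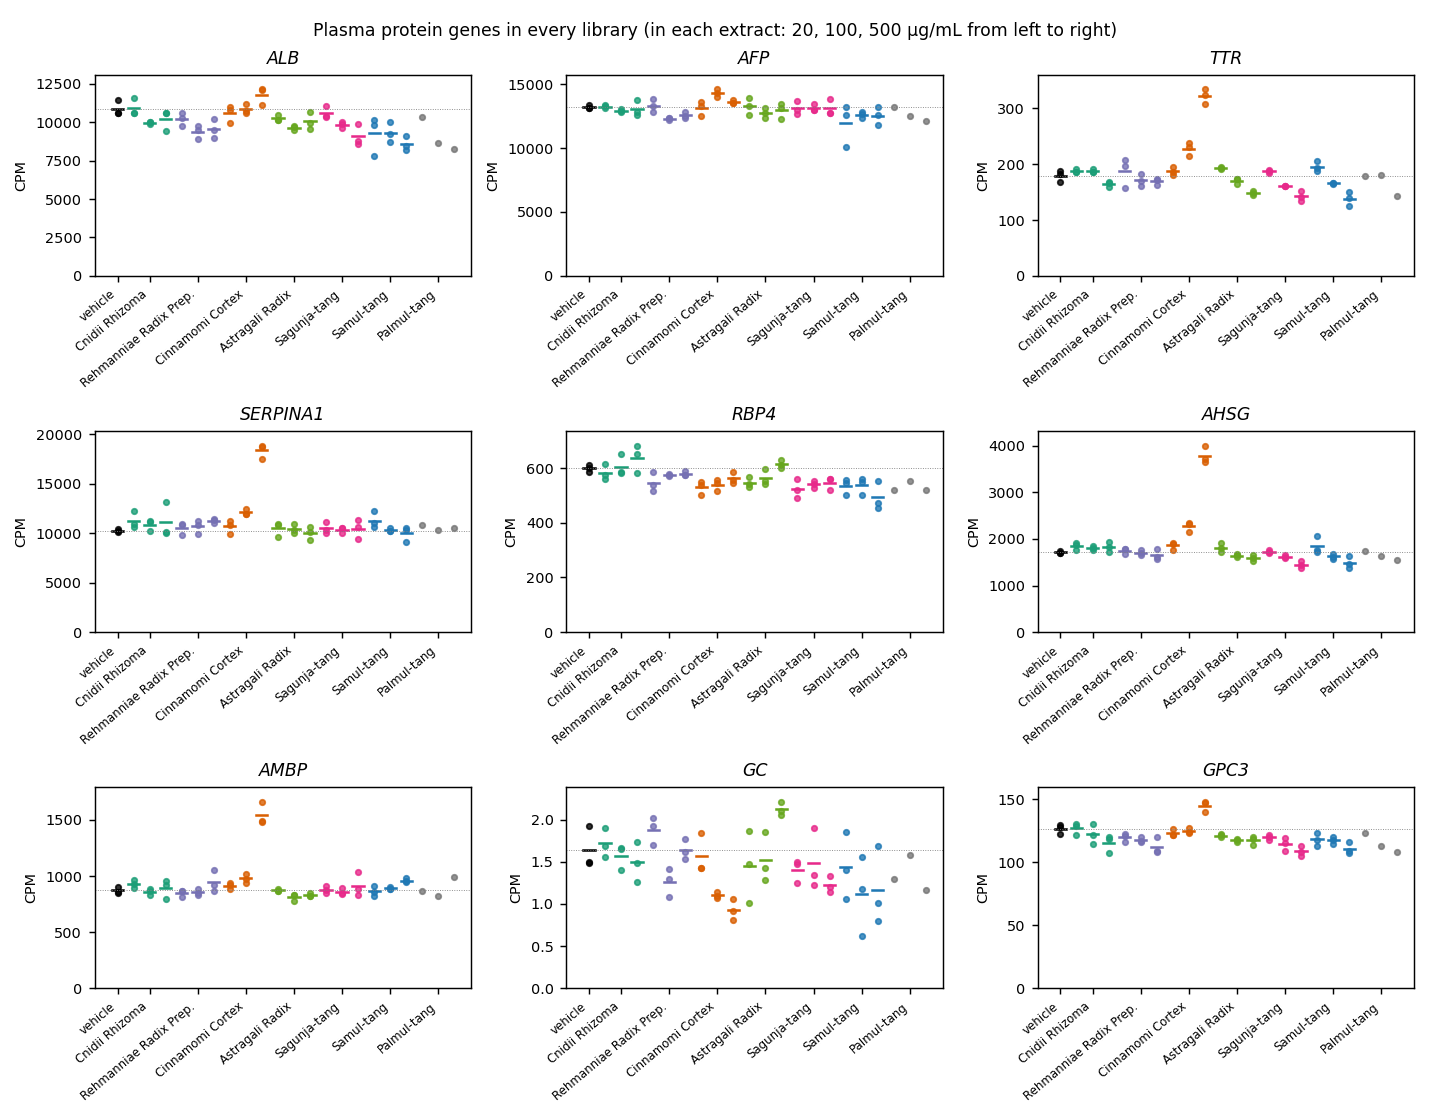
CPM after TMM scaling (y axis) of each gene in all 60 libraries (points), with the mean of each group of 3 (short bars) and the vehicle mean (dotted line); within an extract, doses run from 20 to 500 µg/mL from left to right. AHSG, SERPINA1, TTR and AMBP have their highest values in the 3 libraries of 500 µg/mL Cinnamomi Cortex, while AFP stays between 10060 and 14581 CPM throughout.

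At 500 µg/mL, Cinnamomi Cortex, the bark of cassia cinnamon, gave the largest fitted changes from vehicle of AHSG, SERPINA1, TTR and AMBP, which rose, and of GC, which fell. GPC3 rose by a small amount with TMM scaling, and ALB, AFP and RBP4 did not pass the test, but with libraries scaled by total counts alone GPC3 was not called and AFP and RBP4 were called lower. Thus 6 of the 9 genes were called by edgeR's quasi-likelihood test at an adjusted p under 0.05, 5 higher and 1 lower, in a comparison in which 62.7% of the 16167 genes tested were called, 31.1% higher and 31.6% lower. A count of 6 of 9 is close to that background. The median log2 fold change was 0.19 over the 9 genes and -0.02 over all genes tested (by total counts alone, -0.09 and -0.30). In bulk RNA, fewer cells making a transcript and less of it per cell cannot be told apart.

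AHSG moved furthest. Its counts were 1705, 1746 and 1701 CPM in the vehicle libraries and 3647, 3718 and 4006 CPM with 500 µg/mL Cinnamomi Cortex. All 3 treated libraries lay above all 3 vehicle libraries. The log2 fold change was 1.14 (SE 0.0579, n = 3 against 3, edgeR adjusted p = 1.1e-22). At 100 µg/mL the libraries held 2142, 2344 and 2326 CPM, again all above vehicle, with a log2 fold change of 0.40 (SE 0.0573, edgeR adjusted p = 4.54e-07). At 20 µg/mL AHSG was at 1861 ± 77.1 CPM (SD, n = 3) and was not called.

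SERPINA1, the main plasma inhibitor of neutrophil elastase, stood at 10125, 10396 and 10220 CPM in vehicle and at 18833, 18746 and 17492 CPM with 500 µg/mL. The groups did not overlap, and the log2 fold change was 0.84 (SE 0.0749, edgeR adjusted p = 6.48e-14). At 100 µg/mL it was at 11968, 12471 and 11949 CPM, all above vehicle, a log2 fold change of 0.24 (SE 0.0744, edgeR adjusted p = 0.0153). That call at 100 µg/mL was lost without vehicle replicate 1 or without Cinnamomi Cortex 100 µg/mL replicate 2, where the largest edgeR adjusted p was 0.0685. At 20 µg/mL SERPINA1 was at 10671 ± 704 CPM and was not called.

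TTR was at 189, 168 and 183 CPM in vehicle and at 307, 324 and 334 CPM with 500 µg/mL Cinnamomi Cortex. Every treated library exceeded every vehicle library, and the log2 fold change was 0.84 (SE 0.0599, edgeR adjusted p = 3.54e-17), the same size as that of SERPINA1. With 100 µg/mL TTR was at 214, 231 and 239 CPM, also without overlap, with a log2 fold change of 0.34 (SE 0.0599, edgeR adjusted p = 2.18e-05). At 20 µg/mL it was at 187 ± 6.83 CPM, against 180 ± 10.6 CPM in vehicle.

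AMBP, whose product is cut into a haem-scavenging lipocalin and a protease inhibitor, was at 860, 906 and 851 CPM in vehicle and at 1485, 1489 and 1661 CPM with 500 µg/mL. The groups did not overlap, and the log2 fold change was 0.82 (SE 0.0612, edgeR adjusted p = 1.43e-16). With 100 µg/mL AMBP was at 938, 974 and 1022 CPM, above vehicle in all 3 libraries, with a log2 fold change of 0.16 (SE 0.0609) whose edgeR adjusted p of 0.0488 was close to the threshold. It was lost when vehicle replicate 1 or 3, or Cinnamomi Cortex 100 µg/mL replicate 2 or 3, was left out (largest adjusted p, 0.208), and with total counts alone it was 0.09 (adjusted p = 0.474).

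GPC3 was at 129, 128 and 122 CPM in vehicle and at 140, 147 and 148 CPM with 500 µg/mL Cinnamomi Cortex. The groups did not overlap, and the log2 fold change of 0.19 (SE 0.0451, edgeR adjusted p = 0.000221) was the smallest of the called rises; with libraries scaled by total counts alone it was -0.09 (adjusted p = 0.205). At 100 and 20 µg/mL GPC3 was at 125 ± 2.03 and 123 ± 2.59 CPM, not called against vehicle.

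GC went the other way. It was at 1.49, 1.49 and 1.92 CPM in vehicle and at 1.05, 0.919 and 0.810 CPM with 500 µg/mL. The groups did not overlap, and the log2 fold change was -0.81 (SE 0.246, edgeR adjusted p = 0.00385). At 100 µg/mL it was at 1.09, 1.07 and 1.14 CPM, below vehicle in all 3 libraries, but the log2 fold change of -0.57 was not called (edgeR adjusted p = 0.0827). These values of GC rest on few reads.

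ALB, AFP and RBP4 did not pass the test at 500 µg/mL Cinnamomi Cortex. ALB was at 10585, 10620 and 11452 CPM in vehicle and at 11090, 12134 and 12117 CPM treated, with overlapping groups and a log2 fold change of 0.11 (95% interval -0.02 to 0.25, edgeR adjusted p = 0.129). AFP was at 13384, 13098 and 13118 CPM in vehicle and at 13547, 13495 and 13775 CPM treated. The treated AFP libraries were all above vehicle, but by so little that the log2 fold change was 0.04 (95% interval -0.07 to 0.16, edgeR adjusted p = 0.515). RBP4, whose protein travels in plasma bound to transthyretin, was at 612, 585 and 603 CPM in vehicle and at 558, 545 and 588 CPM treated, a log2 fold change of -0.09 (95% interval -0.21 to 0.03, edgeR adjusted p = 0.195). The upper bound for AFP, 0.16, lay below the lowest of the lower bounds for AHSG, SERPINA1, TTR and AMBP, 0.69.

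Among results of the 9 genes called under either scaling, total counts alone reversed directions only in comparisons that involve Cinnamomi Cortex. Over all genes tested, the split of called genes shifted elsewhere too. With 500 µg/mL Cnidii Rhizoma it went from 987 higher and 917 lower to 507 and 1996. With total counts alone, the median over all genes tested was -0.30 at 500 µg/mL Cinnamomi Cortex, and the called genes split into 2599 higher and 8146 lower instead of 5027 and 5114. AHSG, SERPINA1, TTR and AMBP were still called higher, with log2 fold changes of 0.86, 0.56, 0.56 and 0.55. AFP and RBP4 were then called lower, at -0.24 (edgeR adjusted p = 0.00045) and -0.37 (adjusted p = 5.7e-07), and ALB was at -0.16 (adjusted p = 0.0561). The count of the 9 became 4 higher and 3 lower.

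At 100 µg/mL Cinnamomi Cortex, edgeR called 4 of the 9 genes (AHSG, TTR, SERPINA1 and AMBP), all higher, with a background of 19.4% of all genes called. AFP had its highest group mean of the series here, at 14581, 13960 and 14282 CPM, all above vehicle, yet its log2 fold change of 0.11 was not called (edgeR adjusted p = 0.164). At 20 µg/mL edgeR called 0 of the 9 (background 7.16%), 2 had an unadjusted p under 0.05, and DESeq2 called 1. That gene was RBP4, at 529.9 ± 24.2 CPM against 599.7 ± 13.7 CPM in vehicle, which was lower by 0.18 on the log2 scale in DESeq2 (adjusted p = 0.036).

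**Figure D2:**
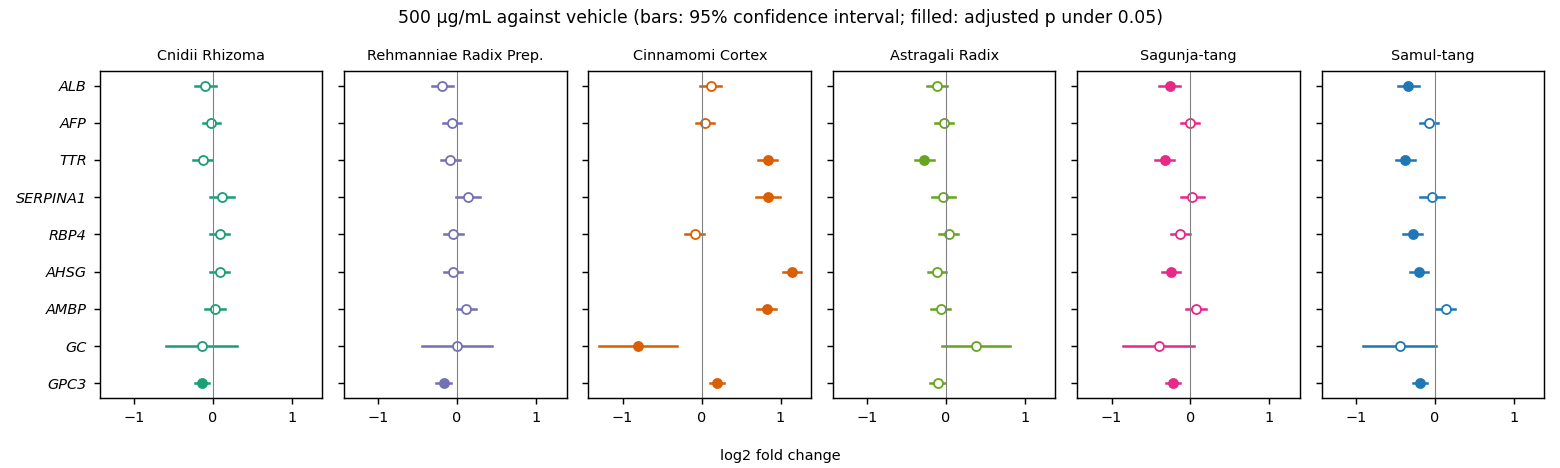
Log2 fold change against vehicle (x axis) of the 9 genes at 500 µg/mL of each of 6 extracts; bars are 95% intervals and filled points passed edgeR's test at an adjusted p under 0.05. Cinnamomi Cortex has 4 genes between 0.82 and 1.14 and GC at -0.81, while Sagunja-tang and Samul-tang have only falls among the filled points; GPC3 at Cinnamomi Cortex is 0.19 here and -0.09 with total counts alone.

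The course over dose was tested without the vehicle, as a log2 change for each 5-fold step from 20 through 100 to 500 µg/mL. With Cinnamomi Cortex, 7 of the 9 genes had a trend called by edgeR, 6 upward and GC downward, where 61.9% of all genes tested had one. AHSG rose by 0.51 a step (SE 0.0289, adjusted p = 7.28e-21), SERPINA1 by 0.39 (SE 0.0374, adjusted p = 7.11e-13), TTR by 0.39 (SE 0.0299, adjusted p = 5.63e-16) and AMBP by 0.38 (SE 0.0306, adjusted p = 2.87e-15). GPC3 rose by 0.12 a step (SE 0.0226, edgeR adjusted p = 1.34e-05). ALB had the smallest called trend, 0.08 a step (SE 0.0329, edgeR adjusted p = 0.0377). This call was lost without Cinnamomi Cortex 20 µg/mL replicate 1 (adjusted p = 0.19), 500 µg/mL replicate 2 (0.117) or 500 µg/mL replicate 3 (0.119). It was also lost when adjusted over the family of comparisons, and without the replicate 1 libraries of set 6 together. GC fell by 0.37 a step (SE 0.124, edgeR adjusted p = 0.00867), a call lost without Cinnamomi Cortex 20 µg/mL replicate 2 (adjusted p = 0.0503). AFP (0.03, edgeR adjusted p = 0.436) and RBP4 (0.04, adjusted p = 0.198) showed no called trend. With total counts alone the trends of ALB, AFP, RBP4 and GPC3 turned negative, at -0.06, -0.11, -0.09 and -0.02, and the count became 4 upward and 3 downward.

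**Figure D3:**
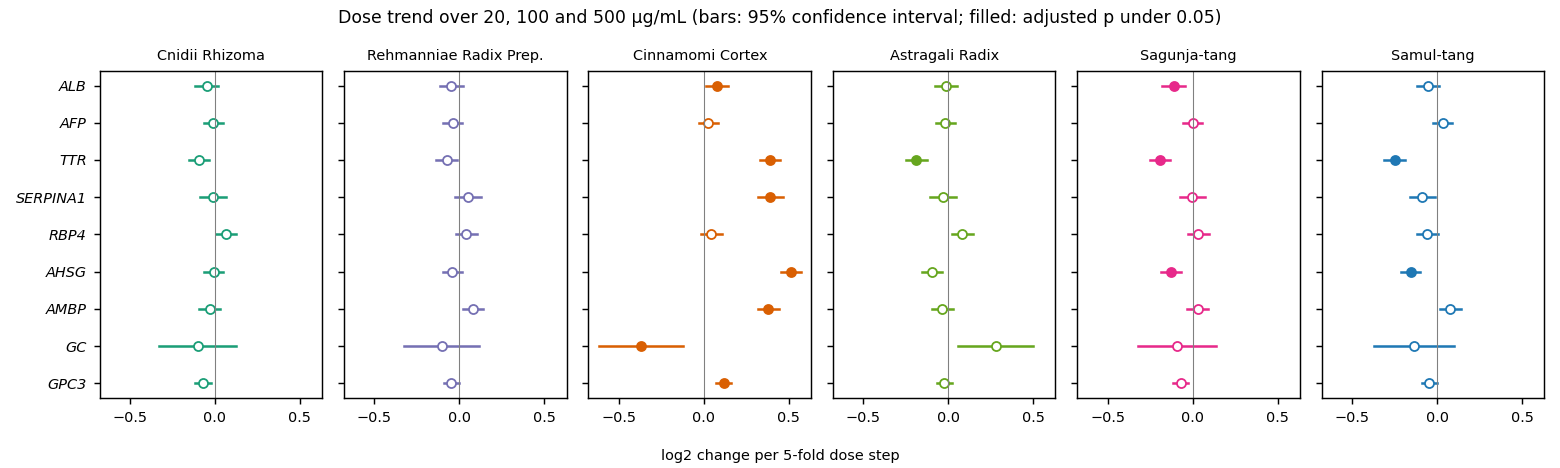
Log2 change for each 5-fold step of dose (x axis) of the 9 genes in 6 extracts, from the libraries at 20, 100 and 500 µg/mL; bars are 95% intervals and filled points passed edgeR's test. AHSG at 0.51 leads the Cinnamomi Cortex panel, and TTR is the lowest filled point with Samul-tang (-0.25), Sagunja-tang (-0.19) and Astragali Radix (-0.19); with total counts alone ALB, AFP, RBP4 and GPC3 are below 0 for Cinnamomi Cortex.

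The slope over dose with Cinnamomi Cortex was also compared with that of each other extract, with no vehicle library in the test. Of the 9 genes, edgeR called 6 slopes different from Cnidii Rhizoma (background 50.6%), 6 from Rehmanniae Radix Preparata (48.4%), 6 from Astragali Radix (50.9%), 6 from Sagunja-tang (50%) and 7 from Samul-tang (54%). TTR, SERPINA1, AHSG, AMBP and GPC3 were called in all 5, each with the higher slope under Cinnamomi Cortex, and AFP in 0. The slope of AHSG was higher than with each other extract by 0.52 to 0.67 on the log2 scale per step. With total counts alone GPC3 was called in 0 of the 5.

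Astragali Radix, the root of milkvetch, carries the same set number as Cinnamomi Cortex, and the 2 could be compared without the vehicle. At 500 µg/mL, edgeR called 7 of the 9 genes different, 6 higher with Cinnamomi Cortex and GC lower, with 62.7% of all genes called. In log2 units AHSG differed by 1.26 (SE 0.0581, adjusted p = 3.15e-24), TTR by 1.11 (SE 0.0608, adjusted p = 1.72e-21), AMBP by 0.89 (SE 0.0614, adjusted p = 9.15e-18) and SERPINA1 by 0.87 (SE 0.0749, adjusted p = 1.92e-14). GPC3 was higher by 0.30 (edgeR adjusted p = 1.24e-07). ALB, at 9530, 9980 and 10662 CPM with Astragali Radix, was higher by 0.23 with Cinnamomi Cortex (edgeR adjusted p = 0.00242), but by total counts alone the ALB difference was -0.03. GC was at 2.06, 2.11 and 2.21 CPM with 500 µg/mL Astragali Radix, its highest group, and differed by -1.19 (SE 0.244, edgeR adjusted p = 3.42e-05). RBP4 differed by -0.12 (edgeR adjusted p = 0.0695). Blocking by replicate number within the set gave -0.13 (adjusted p = 0.0156), which passed the threshold. AFP differed by 0.07 (edgeR adjusted p = 0.265).

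TTR, which rose with Cinnamomi Cortex, fell with 3 other extracts at 500 µg/mL. With Samul-tang, a formula of several herbs, TTR was at 140, 149 and 125 CPM, and with Sagunja-tang, another such formula, at 142, 153 and 135 CPM. With 500 µg/mL Astragali Radix it was at 144, 153 and 149 CPM. All 9 of these libraries lay below the 3 vehicle libraries at 189, 168 and 183 CPM. The log2 fold changes were -0.38 for Samul-tang (SE 0.0606, edgeR adjusted p = 1.71e-05), -0.33 for Sagunja-tang (SE 0.0603, adjusted p = 0.000156) and -0.27 for Astragali Radix (SE 0.0606, adjusted p = 0.00557). The Astragali Radix call was lost without vehicle replicate 1 (edgeR adjusted p = 0.0515). At 20 µg/mL the same 3 extracts left TTR at 196 ± 8.66, 187 ± 2.05 and 193 ± 2.04 CPM. The trends over dose, which leave the vehicle out, were called as well. TTR fell by 0.25 a step with Samul-tang (SE 0.0303, edgeR adjusted p = 9.14e-08), by 0.19 with Sagunja-tang (SE 0.0301, adjusted p = 2.69e-05) and by 0.19 with Astragali Radix (SE 0.0303, adjusted p = 9.3e-05).

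With 500 µg/mL Samul-tang, 5 of the 9 genes were called lower and 0 higher by edgeR's test, with 13.7% of all genes called and 6.26% called lower. Besides TTR these were ALB, RBP4, AHSG and GPC3. ALB was at 9100, 8467 and 8221 CPM, all below vehicle, a log2 fold change of -0.34 (SE 0.0659, edgeR adjusted p = 0.000272). RBP4 was at 474, 553 and 453 CPM, also below vehicle, with -0.28 (SE 0.0602, edgeR adjusted p = 0.000891), a call lost when the lowest-dose groups were the comparator (-0.14, adjusted p = 0.0548). AHSG, at 1453, 1642 and 1370 CPM, was lower by a log2 fold change of -0.21 (SE 0.0573, edgeR adjusted p = 0.0108), a call lost without Samul-tang 500 µg/mL replicate 3 and in a fit of the compared groups alone (largest adjusted p, 0.128). GPC3, at 109, 116 and 107 CPM, had -0.19 (SE 0.0453, edgeR adjusted p = 0.00253). The median of the 9 genes was -0.21, against -0.01 over all genes tested.

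With 500 µg/mL Sagunja-tang, 4 of the 9 genes were called lower and 0 higher by the same test, with 12.3% of all genes called and 5.51% called lower. They were TTR, ALB, AHSG and GPC3. ALB was at 8791, 9867 and 8590 CPM, below vehicle in every library, with a log2 fold change of -0.26 (SE 0.0659, edgeR adjusted p = 0.00535), lost in a fit of the compared groups alone (adjusted p = 0.071). AHSG was at 1439, 1519 and 1377 CPM (-0.25, SE 0.0573, edgeR adjusted p = 0.00217) and GPC3 at 105, 113 and 108 CPM (-0.22, SE 0.0451, adjusted p = 0.000597). Neither gene overlapped its vehicle range. The 2 formulas were then compared with each other at 500 µg/mL. There edgeR and DESeq2 each called 0 of the 9 genes (background 0.885%), and RBP4 alone had an unadjusted p under 0.05, at 0.15 higher with Sagunja-tang (95% interval 0.03 to 0.27).

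Over dose, Sagunja-tang had 3 downward trends among the 9 genes by edgeR (background 4.99%) and Samul-tang 2 (background 9.88%). AHSG fell by 0.13 a step with Sagunja-tang (SE 0.0286, edgeR adjusted p = 0.00364) and by 0.16 with Samul-tang (SE 0.0286, adjusted p = 0.000307). The AHSG trend with Samul-tang was lost in a fit of the compared groups alone (adjusted p = 0.137). ALB fell by 0.11 a step with Sagunja-tang (SE 0.0329, edgeR adjusted p = 0.0343), and this was lost without any 1 of 5 of the 9 libraries (largest adjusted p, 0.167, without 500 µg/mL replicate 3). The same trend was lost by total counts alone and in a fit of the compared groups alone. With Samul-tang ALB was already low at 20 µg/mL, where libraries were at 10160, 7817 and 9840 CPM, and its trend was not called.

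At the lower doses of the 2 formulas the calls were few and less stable. With 20 µg/mL Samul-tang, ALB (-0.23, edgeR adjusted p = 0.00955) and RBP4 (-0.17, adjusted p = 0.0424) were called lower, where 20.7% of all genes were called. The ALB call was lost without vehicle replicate 3 (adjusted p = 0.0578) or Samul-tang 20 µg/mL replicate 2 (edgeR adjusted p = 0.204). In that Samul-tang library AFP too was at its lowest, 10060 CPM against 13229 and 12616 CPM in the other libraries of the group. At 100 µg/mL ALB was called (-0.23, edgeR adjusted p = 0.0251, background 8.08%) from 9988, 8741 and 9212 CPM, and the call was lost without vehicle replicate 3 or Samul-tang 100 µg/mL replicate 2 or 3. With Sagunja-tang, GPC3 was called lower at 100 µg/mL, at 115, 119 and 109 CPM (-0.15, edgeR adjusted p = 0.0291, background 8.85%). RBP4 was called lower at 20 µg/mL, at 490, 560 and 520 CPM (-0.20, edgeR adjusted p = 0.0251, background 11.4%). Of the 6 libraries in each comparison, leaving out any 1 of 4 ended the GPC3 call (largest adjusted p, 0.19, without Sagunja-tang 100 µg/mL replicate 3) and the RBP4 calls with 20 µg/mL Sagunja-tang (0.158, without its replicate 1) and Samul-tang (0.184, without its replicate 3).

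With Astragali Radix, edgeR called TTR alone of the 9 genes at 500 µg/mL (background 3.04%) and in the trend (background 1.16%). Blocked by replicate number within its set, 3 trends were called, with RBP4 at 0.08 a step (edgeR adjusted p = 0.0471) and AHSG at -0.09 (adjusted p = 0.0249) added. At 100 and 20 µg/mL edgeR and DESeq2 called 0 of 9 (backgrounds 2.26% and 3.93%), and 2 and 1 genes had an unadjusted p under 0.05.

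The prepared root of Rehmannia, Rehmanniae Radix Preparata, and the rhizome of Cnidium, Cnidii Rhizoma, moved few of the 9 genes. At 500 µg/mL GPC3 alone was called by edgeR in each, lower than in vehicle (backgrounds 7.45% and 11.8%). GPC3 was at 108, 109 and 120 CPM with Rehmanniae Radix Preparata (-0.17, adjusted p = 0.0126) and at 107, 119 and 120 CPM with Cnidii Rhizoma (-0.13, adjusted p = 0.0426). Both GPC3 calls were lost in a fit of the compared groups alone, and without vehicle replicate 1 or 2. Both were also lost with no filter on low counts and with the average of the 6 lowest-dose groups as the comparator. That of Cnidii Rhizoma was also lost without its replicate 1, and that of Rehmanniae Radix Preparata without its replicate 1 or 2. In both groups replicate 1 had the highest mitochondrial share, 22.6% with Cnidii Rhizoma and 20.4% with Rehmanniae Radix Preparata. Neither call was lost with mitochondrial genes left out of the scaling, and any other part of that share in these calls was not tested. With 100 µg/mL Rehmanniae Radix Preparata ALB was called lower, at 8932, 9475 and 9723 CPM (-0.22, edgeR adjusted p = 0.0493, background 4.17%), a call lost without any 1 of the 6 libraries. With 20 µg/mL of Rehmanniae Radix Preparata and with 100 and 20 µg/mL of Cnidii Rhizoma, edgeR and DESeq2 called 0 of 9 (backgrounds 7.19%, 3.58% and 6.49%), with 1, 0 and 0 genes at an unadjusted p under 0.05. Neither extract had a trend called by edgeR (backgrounds 0.674% and 3.22%), although 3 genes in each had an unadjusted p under 0.05. DESeq2 called 0 trends with Rehmanniae Radix Preparata and 2 with Cnidii Rhizoma, TTR and GPC3. Between the 2 extracts at 500 µg/mL, edgeR and DESeq2 called 0 of 9 (background 0.705%). There RBP4 (0.14, 95% interval 0.02 to 0.26) and AHSG (0.14, 95% interval 0.03 to 0.26) were higher with Cnidii Rhizoma at an unadjusted p under 0.05.

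The vehicle is shared by all 18 comparisons with it, so these are not independent of each other. Over the 18, TTR was called higher in 2 and lower in 3, AHSG higher in 2 and lower in 2, and SERPINA1 and AMBP higher in 2 each and lower in 0. GPC3 was called higher in 1 and lower in 5, ALB lower in 5, RBP4 lower in 3 and GC lower in 1. AFP was called by edgeR in 0 of them, with log2 fold changes from -0.14 to 0.11. Over all 32 comparisons and trends AFP was called 0 times by edgeR and 1 time by DESeq2, with 2 at an unadjusted p under 0.05. The scaling by total counts alone did call AFP lower with 500 µg/mL Cinnamomi Cortex, as given above.

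Palmul-tang, with 1 library per dose, gave TTR at 143 CPM at 500 µg/mL, 181 CPM at 100 µg/mL and 179 CPM at 20 µg/mL. ALB was at 8239, 8651 and 10329 CPM at the same 3 doses, and AFP at 12108, 12495 and 13236 CPM. All 3 ALB libraries were below the 3 vehicle libraries, as were the TTR library at 500 µg/mL and the AFP libraries at 500 and 100 µg/mL. AHSG was at 1542, 1637 and 1748 CPM and GPC3 at 108, 113 and 123 CPM. SERPINA1 (10474, 10330 and 10838 CPM) and AMBP (992, 818 and 869 CPM) had no ordered course over dose. These single libraries have no replicate check.

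A ratio of 2 genes within a library does not depend on how libraries are scaled, and 6 ratios were followed over dose in 6 extracts with an exact permutation test of the slope from 20 to 500 µg/mL, two-sided, adjusted over the 36 tests. The smallest p such a test can give here is 0.00119. The ratio of AFP to ALB counts was 1.21 ± 0.062 (SD, n = 3) in vehicle. With Sagunja-tang it was 1.24 ± 0.0103 at 20 µg/mL, 1.34 ± 0.030 at 100 µg/mL and 1.45 ± 0.146 at 500 µg/mL, a slope of 0.11 on the log2 scale per step (exact permutation p = 0.0107, adjusted 0.0241). That call was lost without any 1 of 7 of the 9 Sagunja-tang libraries (largest adjusted p, 0.0794, without 500 µg/mL replicate 1). With Samul-tang it was 1.46 ± 0.027 at 500 µg/mL and the slope was 0.09 (exact permutation p = 0.00595, adjusted 0.0143), called without each of its libraries in turn. All 3 libraries of both formulas at 500 µg/mL, from 1.29 to 1.58 and from 1.43 to 1.49, were above the highest vehicle ratio of 1.26. The other 4 extracts had no called slope of this ratio, and with 500 µg/mL Cinnamomi Cortex it was 1.16 ± 0.057. In the Palmul-tang libraries the ratio was 1.28, 1.44 and 1.47 at 20, 100 and 500 µg/mL.

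Against ALB itself, AHSG rose with Cinnamomi Cortex by 0.44 a step, TTR by 0.31, SERPINA1 by 0.31 (each exact permutation adjusted p = 0.00536) and AMBP by 0.30 (adjusted p = 0.00779). TTR to ALB fell by 0.17 a step with Astragali Radix and by 0.08 with Sagunja-tang (exact permutation adjusted p = 0.00536 for both), and by 0.20 with Samul-tang (adjusted p = 0.0143). TTR thus fell relative to albumin in these 3 extracts, but with Samul-tang the call was lost without 20 µg/mL replicate 2 (adjusted p = 0.0643) or 500 µg/mL replicate 1 (0.102) or 3 (0.117). AMBP to ALB rose by 0.13 with Rehmanniae Radix Preparata (exact permutation adjusted p = 0.00536) and by 0.14 with Sagunja-tang (adjusted p = 0.0132), the latter lost without Sagunja-tang 20 µg/mL replicate 1 (adjusted p = 0.0603).

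The ratio of TTR to RBP4, the genes of the 2 partners of the retinol transport complex, had a called slope with 5 of the 6 extracts. TTR to ALB also had a called slope with Cinnamomi Cortex, Astragali Radix, Sagunja-tang and Samul-tang, as given above. How often pairs outside the 6 ratios tested would have one was not examined. In edgeR's fit of all groups with TMM scaling, TTR alone had 1 upward and 3 downward called trends, and RBP4 had 0. The TTR to RBP4 ratio was 0.299 ± 0.011 in vehicle, 0.571 ± 0.022 with 500 µg/mL Cinnamomi Cortex and 0.242 ± 0.006 with 500 µg/mL Astragali Radix. Its log2 slope was 0.34 a step with Cinnamomi Cortex and -0.27 with Astragali Radix (exact permutation adjusted p = 0.00536 for both). It was -0.23 with Sagunja-tang, -0.19 with Samul-tang (adjusted p = 0.00779 for both) and -0.16 with Cnidii Rhizoma (adjusted p = 0.0132), the last lost without its 20 µg/mL replicate 3 (adjusted p = 0.0522). Rehmanniae Radix Preparata, at -0.11, did not pass (exact permutation adjusted p = 0.126).

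**Figure D4:**
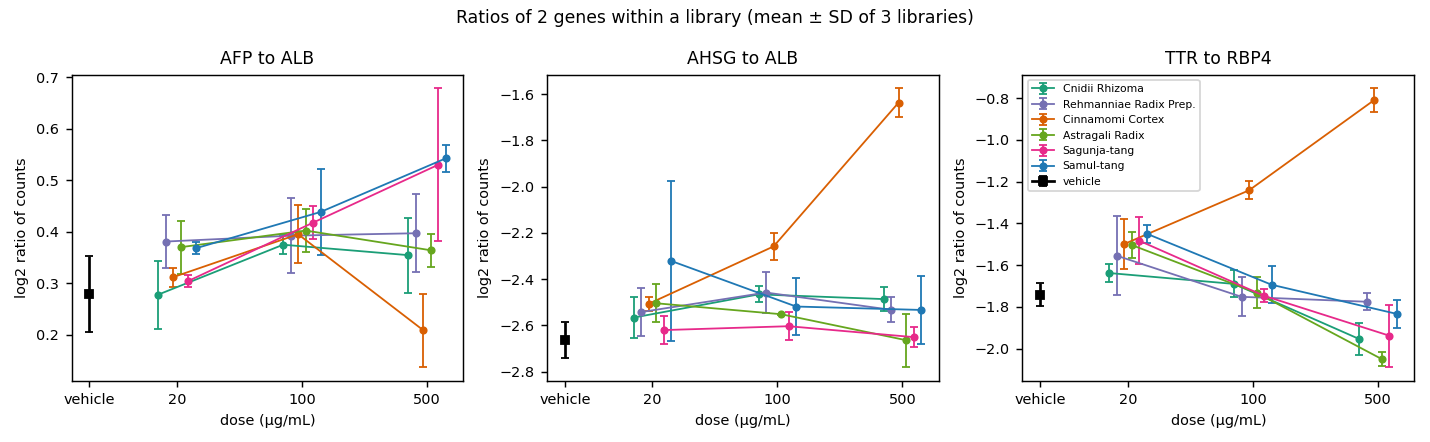
Log2 ratio of the counts of 2 genes within a library (y axis) against dose in µg/mL (x axis), as mean ± SD of 3 libraries for vehicle (black) and 6 extracts. Called slopes were a rise of AHSG to ALB with Cinnamomi Cortex, a rise of TTR to RBP4 with Cinnamomi Cortex and a fall with Cnidii Rhizoma, Astragali Radix, Sagunja-tang and Samul-tang, and a rise of AFP to ALB with Sagunja-tang and Samul-tang.

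Over the 19 group means, on the log2 CPM scale, the members were also compared with each other. The points share the scaling of their libraries and, within an extract, a set number, and 3 of the 19 are Cinnamomi Cortex. Pearson's r was 0.96 between SERPINA1 and AHSG, 0.95 between TTR and AHSG and 0.93 between SERPINA1 and AMBP. Over the 16 groups without Cinnamomi Cortex, TTR and AHSG still had an r of 0.89 and SERPINA1 and AHSG of 0.65, while SERPINA1 and AMBP had 0.21 and AHSG and AMBP went from 0.86 to -0.24. ALB and GPC3 had an r of 0.85 over 19 and 0.79 over 16 groups, and ALB and AFP 0.74 and 0.69. TTR and RBP4, partners as proteins, had 0.01 and 0.13. Among 9133 tested genes with a mean of at least 10 CPM, the 4 with a course over the 19 groups most like ALB by Pearson's r were GPC3 (0.85), PHYH (0.83), ETFA (0.82) and RNF7 (0.82). For AFP they were TIMMDC1 (0.87), SCOC (0.78), CEBPG (0.78) and BTG3 (0.77), and for GPC3 they included PMM1 (0.94), ZDHHC4 (0.93) and CPVL (0.93).

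Of 20 other carrier and binding proteins of plasma, 9 were called higher and 7 lower by edgeR with 500 µg/mL Cinnamomi Cortex, where 31.1% of all genes were called higher and 31.6% lower (by total counts alone, 6 and 9 of the 20). The median log2 fold change of the 20 was 0.01 against -0.02 over all genes tested, and -0.26 against -0.30 by total counts alone. APOM, a carrier of sphingosine 1-phosphate, went from 75.2 to 166 CPM (log2 fold change 1.14, adjusted p = 3.78e-20) and ITIH3, a heavy chain that pairs with bikunin from AMBP, from 109.96 to 173 CPM (0.65, adjusted p = 3.68e-15). HP, the haemoglobin-binding haptoglobin, went from 321 to 201 CPM (-0.68, edgeR adjusted p = 1.18e-15). SERPINA7, the thyroxine-binding globulin that shares its ligand with TTR, went from 214 to 154 CPM (-0.47, edgeR adjusted p = 3.75e-12), opposite to TTR. With 500 µg/mL Sagunja-tang 0 of the 20 were called higher and 7 lower, and with Samul-tang 1 and 7, where 5.51% and 6.26% of all genes were called lower. SERPINA7 was among those called lower in both, at 172 and 181 CPM against 214 CPM in vehicle.

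Of 20 transcription factors of liver, 10 were called higher and 7 lower with 500 µg/mL Cinnamomi Cortex, beside the same 31.1% and 31.6% of all genes (by total counts alone, 7 and 10 of the 20), with a median of 0.14 (-0.14 by total counts alone). CEBPB, a factor of the acute phase response, went from 21.7 to 81.6 CPM (log2 fold change 1.91) and FOXA3 from 30.7 to 59.6 CPM (0.96). FOXA1 went from 121 to 62.2 CPM (-0.96). ZHX2, known as a repressor of AFP after birth, went from 36.7 to 71.6 CPM (0.96), while AFP was not called with TMM scaling and was called lower with total counts alone. Chosen after their values were seen, CEBPA went from 96.4 to 48.2 CPM, and ZBTB20, another repressor of AFP, at 4.08 CPM, was called higher.

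**Figure D5:**
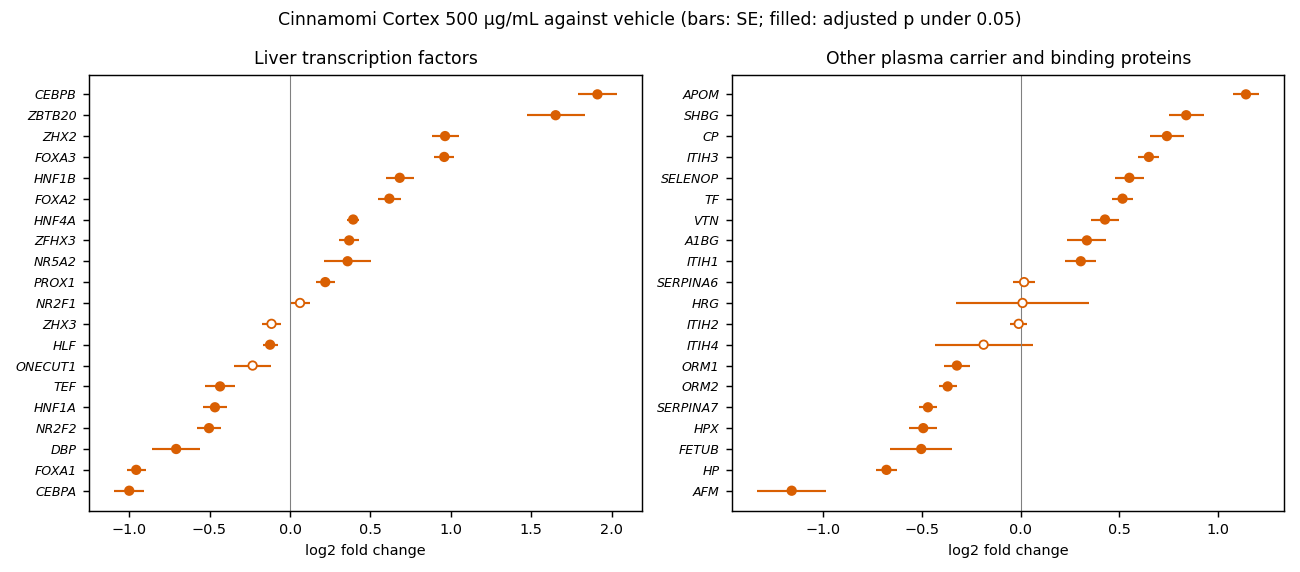
Log2 fold change (x axis) of 20 liver transcription factors and 20 other plasma carrier and binding proteins at 500 µg/mL Cinnamomi Cortex against vehicle; bars are SE and filled points passed edgeR's test. CEBPB at 1.91 and CEBPA, which fell from 96.4 to 48.2 CPM, stand at opposite ends of the factors, and APOM at 1.14 leads the carriers; by total counts alone the split was 7 higher and 10 lower for the factors and 6 and 9 for the carriers.

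Of 15 tested oncofetal genes of liver tumours, a list that holds AFP and GPC3, 5 were called higher and 6 lower with 500 µg/mL Cinnamomi Cortex, against 31.1% and 31.6% of all genes, and 1 and 8 of the 15 by total counts alone. The median was 0.04, and -0.24 by total counts alone. PEG10 went from 4979 to 2626 CPM (log2 fold change -0.92) and the keratin gene KRT19 from 42.6 to 97.0 CPM (1.19). IGF2BP1 (-0.46) and HMGA2 (-0.40) were lower too. Of 12 tested genes for secretion, retrieval and uptake of plasma proteins, 6 were called higher and 3 lower, against 31.1% and 31.6% of all genes, and 1 and 6 of the 12 by total counts alone. The median was 0.10, and -0.18 by total counts alone. SURF4, a cargo receptor of the endoplasmic reticulum, was higher by 0.25 (-0.03 by total counts alone), and ASGR1, a subunit of the asialoglycoprotein receptor, by 0.36 (0.08 by total counts alone, edgeR adjusted p = 0.317). MIA3, which helps export large cargo, fell by 0.68. Of the 8 HepG2 markers 4 were called higher (KRT8, KRT18, APOA1 and HNF4A) and 4 lower, with a median of 0.06 (-0.21 by total counts alone). Of 5 tested markers of other cell types LYZ was called higher and 2 lower, ACTA2 and COL1A1, the latter going from 0.357 to 0.091 CPM.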

How the data were processed

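RNA of HepG2 cells was sequenced from directional libraries as 100 bp paired ends, per the labels' protocols. The submitters' processing notes name RSEM 1.3.3, STAR 2.7.3a, FastQC 0.11.9 and Trim Galore 0.6.5, with build GRCh38, and the gene annotation is not given in the sources used here. The authors deposited expected counts per gene, of which 8.58% were not whole; they were rounded. Of 270 library columns, 60 matched these samples and 210 were not used. Rows were matched by gene ID to GENCODE 29 (57055 of 60675), whose merged exon lengths gave TPM.

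The 57 libraries of 19 groups with replicates were fitted together with edgeR 4.0.16 (R 4.3.3, limma 3.58.1) by its quasi-likelihood test, after filterByExpr (16167 genes, all 9 members among them) and TMM scaling, with Benjamini-Hochberg adjustment over all genes in each comparison and a threshold of 0.05. Alternatives were other scalings, no filter, DESeq2 1.42.0, a replicate block, a fit of the compared groups alone, an adjustment over the family of comparisons, the average over the 6 lowest-dose groups in place of vehicle, and each library left out. A simulation of 15980 genes altered 50 genes by each of the factors 1.2, 1.5, 2 and 3. For Cinnamomi Cortex 500 µg/mL against vehicle, edgeR's recovery in that order was 40%, 82%, 96% and 96%. It made 166 calls, of which 9 were wrong. In the real comparison 62.7% of the genes tested were called, a larger share than was altered in the simulation. The simulated rates therefore cannot be taken as those of the real comparison, for which recovery and wrong calls were not tested.

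Same-numbered libraries deviated together (every pair's correlation over 0.1, 5000 genes) for Sagunja-tang and Samul-tang at 500 µg/mL against vehicle, for Cinnamomi Cortex against Astragali Radix and for the Astragali Radix trend, and not in the other comparisons. The members and the lists (other plasma carriers, liver transcription factors, oncofetal genes, secretion and uptake, HepG2 markers, other cell types) were chosen with earlier results of these data known. Named from each list were up to 4 genes with the smallest adjusted p for Cinnamomi Cortex 500 µg/mL against vehicle, and, for ALB, AFP and GPC3, the 4 genes most like them; a few genes named by this rule are not reported here. The ratio tests were added later, after the levels had been seen.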

Additional observations from a re-analysis of the deposited data

Results flagged for a closer look

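The course over dose differed between Cinnamomi Cortex and every other extract tested, by edgeR's test of the difference between the 2 slopes (log2 change per 5-fold step, Cinnamomi Cortex minus the other). AHSG had the largest positive differences, 0.52 against Cnidii Rhizoma, 0.55 against Rehmanniae Radix Preparata, 0.61 against Astragali Radix, 0.64 against Sagunja-tang and 0.67 against Samul-tang, with adjusted p from 2.14e-15 to 3.33e-19. For TTR, which fell with dose in 3 of those extracts, the differences in the same order were 0.48, 0.46, 0.58, 0.58 and 0.64. SERPINA1 had 0.40, 0.34, 0.42, 0.39 and 0.48, and AMBP 0.41, 0.30, 0.41, 0.35 and 0.30.

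The slope of GPC3 differed by 0.19, 0.16, 0.14, 0.19 and 0.16 in that order of extracts, and none of these was called with libraries scaled by total counts alone. ALB differed by 0.13 from Cnidii Rhizoma, 0.12 from Rehmanniae Radix Preparata, 0.19 from Sagunja-tang and 0.13 from Samul-tang, and with total counts alone these too were not called, and the difference from Samul-tang turned to -0.01. Of 18 libraries left out one at a time, 5 each ended the call of ALB against Cnidii Rhizoma, 5 against Rehmanniae Radix Preparata and 3 against Samul-tang. A fit of the compared groups alone also ended the call against Samul-tang. RBP4 differed from Samul-tang alone, by 0.10 (edgeR adjusted p = 0.0379), and this turned to -0.04 with total counts alone. The call was also lost without any 1 of 7 of the 18 libraries and in a fit of the compared groups alone. GC differed from Astragali Radix, by -0.65 (edgeR adjusted p = 0.000959), where it fell with 1 extract and was at its highest level with the other. AFP was not among the genes whose slope differed.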

How the results depend on the processing

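Of 288 results of a gene in a comparison, 79 were called, and 47 of these were called under every alternative run. Only the scaling by total counts reversed a direction, in 13 results: AFP -0.24 and GPC3 -0.086 with 500 µg/mL Cinnamomi Cortex against vehicle, its trends of ALB -0.056, AFP -0.11, RBP4 -0.089 and GPC3 -0.016, its differences from Astragali Radix in ALB -0.031 and AFP -0.19, and its slope differences in RBP4 from Rehmanniae Radix Preparata -0.12, Sagunja-tang -0.11 and Samul-tang -0.040, in AFP from Sagunja-tang -0.10 and in ALB from Samul-tang -0.012. The cause was not tested. Counts of called genes that moved by over 1.5 times were these. By total counts, Cnidii Rhizoma 500 µg/mL had 2 and its trend 1, and Rehmanniae Radix Preparata 100, Sagunja-tang 100 and Samul-tang 100 µg/mL had 0. With RLE size factors or without mitochondrial genes in the scaling, Rehmanniae Radix Preparata 100 µg/mL had 0. With no filter, Cnidii Rhizoma 500 and Sagunja-tang 100 µg/mL had 0, and Cinnamomi Cortex 20 µg/mL and the Cnidii Rhizoma trend 1. In a fit of the compared groups alone, Cnidii Rhizoma 500, Rehmanniae Radix Preparata 500 and Samul-tang 20 µg/mL had 0, Samul-tang 100 µg/mL 2, and Cinnamomi Cortex 20 µg/mL and the trends of Cnidii Rhizoma and Samul-tang 1. Adjusted over the family, Cinnamomi Cortex 20 and Samul-tang 20 µg/mL had 1 and the trends of Cnidii Rhizoma and Astragali Radix 2. DESeq2 gave 1 for Cinnamomi Cortex 20 µg/mL and 2 for each of those trends. With the 6 lowest-dose groups averaged as the comparator, Cnidii Rhizoma 500 µg/mL had 2, GPC3 not among them, and Astragali Radix 3. ALB was then called with Cinnamomi Cortex 500 µg/mL at 0.19. With 1 library left out, counts ran from 2 to 4 for Cinnamomi Cortex 100 µg/mL, 0 to 3 for Samul-tang 20 µg/mL, 0 to 2 for Rehmanniae Radix Preparata 500 and Samul-tang 100 µg/mL, and 2 to 3 for the Samul-tang trend. They ran from 0 to 1 for Cnidii Rhizoma 500, Astragali Radix 500, Sagunja-tang 100 and 20 µg/mL and the Rehmanniae Radix Preparata trend, and stayed 0 for Rehmanniae Radix Preparata 100 µg/mL.

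The replicate number as a block over all libraries moved no count by over 1.5 times and added the GPC3 trend with Sagunja-tang at -0.07 (edgeR adjusted p = 0.0441). As a block within a set it raised the Astragali Radix trends to 3 and ended the ALB trend with Sagunja-tang (adjusted p = 0.154), where the numbers do not pair the libraries. Slopes of within-library ratios do not depend on scaling. Leaving out each library in turn, chosen after seeing the data, ended some of them, as given beside each. GC, with 17 to 62 counts per library, is the one gene whose depth limits what could be seen.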
